A study of Mus musculus with 4 samples.

Results

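The genes described here are Ubd, Isg15, Ubb, Nedd8, Sumo2, Sumo3 and Ufm1, 7 of the 56953 gene rows counted in 4 mouse liver libraries, and each encodes ubiquitin or a small protein that is attached to other molecules in the same way. They were chosen by name, with their values in these libraries already known, so the levels and fold changes of the 7 are given as a description without a test. All 7 were found by symbol, and all 7 passed the filter on low counts. Ubd passed it through the deletion libraries, where it is high.

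Both groups were on a normal diet and 2 months old, and every animal carried loxP-flanked (flox/flox) alleles of Ubc13, the ubiquitin-conjugating enzyme whose gene is Ube2n. The control group holds 2 libraries labelled albumin negative and of WT genotype, and the deletion group holds 2 labelled albumin positive with hepatic Ubc13 deletion. The label is read here as the presence of a Cre transgene under the albumin promoter, which acts in hepatocytes and in other cells that have expressed albumin. Liver cells that never expressed albumin keep the flanked alleles. The labels do not state the sex of the animals, nor that the replicates came from separate animals, so p-values measure only the spread between these samples.

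Ubiquitin and its relatives share a compact fold. An activating enzyme (E1) loads the exposed carboxyl end of the modifier, a conjugating enzyme (E2) receives it, and a ligase (E3) joins it to a lysine of the target; proteases remove it again. FAT10, the protein of Ubd, sends its targets directly to the proteasome and is known to be induced by interferon gamma and tumour necrosis factor. ISG15 is the classic interferon-induced modifier, NEDD8 activates cullin ligases, SUMO2 and SUMO3 mark mainly nuclear proteins under stress, and UFM1 modifies ribosomes at the endoplasmic reticulum. Ubb encodes a chain of fused ubiquitin units and is one of several genes that feed the ubiquitin pool.

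The part of each mature modifier, once any tail of the precursor is trimmed, that is joined to targets is its last glycine. The last 75 bases of the coding sequence of each main transcript (GENCODE M21, GRCm38), stop codon included, are shown to compare how the 7 messages end. Capitals mark the first 2 glycine codons of the last run of 2 or more, or the last single glycine codon in Ufm1. Further glycine codons follow the capitals in Isg15, Nedd8 and Sumo3.
Ubd: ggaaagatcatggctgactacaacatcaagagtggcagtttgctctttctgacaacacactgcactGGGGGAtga
Isg15: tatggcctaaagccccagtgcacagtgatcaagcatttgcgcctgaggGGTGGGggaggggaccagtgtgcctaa
Ubb: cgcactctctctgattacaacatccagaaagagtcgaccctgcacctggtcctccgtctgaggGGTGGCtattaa
Nedd8: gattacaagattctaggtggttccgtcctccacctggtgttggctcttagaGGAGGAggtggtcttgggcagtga
Sumo2: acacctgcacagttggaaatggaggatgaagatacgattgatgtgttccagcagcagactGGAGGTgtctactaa
Sumo3: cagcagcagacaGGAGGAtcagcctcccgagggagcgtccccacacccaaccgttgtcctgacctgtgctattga
Ufm1: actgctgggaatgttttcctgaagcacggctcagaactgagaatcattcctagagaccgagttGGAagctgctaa

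In Ubd the glycine pair stood directly before the stop codon, with 0 codons between them. In Ubb there was 1 codon between pair and stop, in Sumo2 there were 2, in Nedd8 5, in Isg15 6 and in Sumo3 18. Ufm1 ended with a single glycine codon followed by 2 codons. Codons after the marked glycine codons encode a tail that proteases trim from the precursor before the modifier can be used. FAT10 is known to need no such step. The coding sequences also differed in length: 489 bases in Ubd and 486 in Isg15, which each encode a tandem of ubiquitin-like domains, against 246 in Nedd8, 258 in Ufm1, 288 in Sumo2 and 333 in Sumo3. The 918 bases of Ubb held 4 repeats of 228 bases that matched each other at 95.6% to 99.1% of positions. Over 285 aligned bases, Sumo2 and Sumo3 were 81.8% identical. In the genome (GRCm38) Ubb lies at chr11:62551171-62553213 (plus strand), Nedd8 at chr14:55662263-55672124 (minus), Sumo2 at chr11:115523102-115536276 (minus), Sumo3 at chr10:77606097-77618331 (plus) and Ufm1 at chr3:53853376-53863830 (minus).

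The libraries as a whole set the frame for the values. Total counts were 16270424 to 17800138. Ube2n had 669 and 654 counts in control livers against 107 and 116 in the deletion libraries, a log2 difference of -2.86 ± 0.16 (edgeR quasi-likelihood test, adjusted p = 0.00188), or an adjusted p of 0.0643 with male RNA share added as a covariate. Xist, the RNA of the inactive X chromosome, had 9 and 2 counts in control livers against 9590 and 3896 in the deletion libraries. From the Y chromosome, Eif2s3y, Ddx3y, Kdm5d and Uty had 0 counts in deletion replicate 1 and 206 to 1027 in each other library, and deletion replicate 2 held both kinds of RNA. Genotype and this sex-linked RNA cannot be told apart in any difference below. Adding male RNA share leaves fewer residual degrees of freedom than the 2 of the fit with genotype alone. A call lost with this covariate therefore need not mean a smaller difference. Albumin, the defining hepatocyte product, held 10.8% and 10.3% of the counts in controls 1 and 2 (Clopper-Pearson 95% intervals 10.83 to 10.86 and 10.27 to 10.30) and 4.87% in each deletion library (4.860 to 4.881 and 4.859 to 4.880); intervals cover counting error only. Of 8 hepatocyte markers, 2 fell (Ttr, adjusted p = 0.0252, and Pck1, 0.0487) and 0 rose. The number called lower was 7 with DESeq2 or without the filter on low counts, 4 when control 1 was left out and 3 when control 2 was. It was 1 when deletion replicate 1 was left out, and 0 when deletion replicate 2 was or with the male RNA covariate. All 8 had lower values in both deletion libraries than in both controls, as did 27.3% of all genes tested.

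Ubd was almost absent from the control livers and within the 1197 most abundant of 14600 messages in each deletion liver. It had 5 and 12 counts in controls 1 and 2 and 2157 and 2868 in deletion replicates 1 and 2. Scaled by TMM (trimmed mean of M values) and expressed as CPM, the usual unit of counts relative to library size, these are 0.308 and 0.824 against 119 and 148 CPM, or 0.566 ± 0.365 and 133 ± 21 (mean ± SD, n = 2 each). Both deletion libraries lay far above both controls, and the lower deletion value was 144 times the higher control value. The log2 fold change, also called the log2 difference below, was 7.89 ± 0.37 (SE), a 236-fold difference. From the summed counts alone, 17 against 5025, the ratio was 242 with a 95% counting interval of 151 to 415. This interval covers counting error only, not the spread between libraries, and the few control counts limit how well the ratio is known. Without control replicate 2 the log2 fold change was 8.72, without control replicate 1 it was 7.32, and without deletion replicate 1 or 2 it was 8.02 or 7.71. Ordered by CPM among the 14600 genes tested, Ubd ranked 14281 and 13341 in control livers against 1197 and 880 with the deletion.

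Isg15 was detected in every library and differed far less. Its level was 13.4 and 10.8 CPM in the controls (218 and 157 counts) and 21.4 and 26.3 CPM with the deletion (389 and 511 counts). The groups did not overlap. The log2 fold change was 0.97 ± 0.20, a 1.97-fold difference, and it stayed between 0.82 and 1.27 in all 12 alternative settings. Ubd CPM was 0.0229 and 0.0764 of Isg15 CPM in control livers against 5.54 and 5.61 times Isg15 CPM with the deletion, so the more abundant of the pair was Isg15 in both controls and Ubd in both deletion libraries. Such levels can be set side by side without dividing by length, because these libraries read 1 stretch at the 3' end of each transcript; how well each 3' end was captured was not tested.

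**Figure D1:**
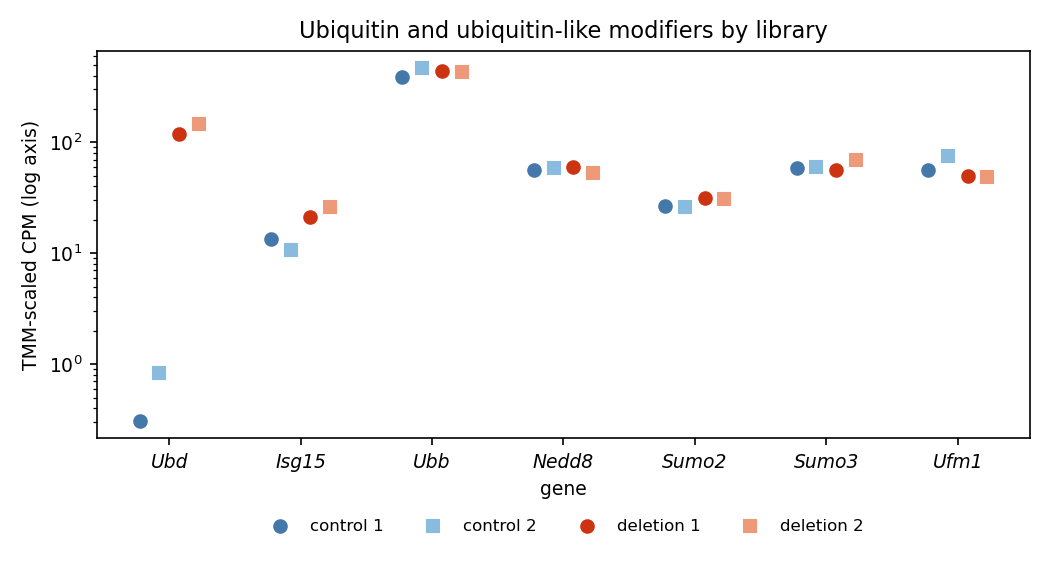
TMM-scaled CPM on a log axis for the 7 modifier genes; each point is 1 library, blue for the 2 controls and red for the 2 deletion libraries, with circles for replicate 1 and squares for replicate 2. Ubd moves from below 1 CPM in control livers to above 100 CPM with the deletion, Isg15 separates by a smaller step, and the other 5 genes stay near their control levels.

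The remaining modifiers differed by less than 1.5-fold between the group means. Ubb, the most abundant of the 7 in every library, had 390.3 and 464 CPM in control livers against 443 and 434 CPM with the deletion. The deletion values lay between the control values, with a log2 difference of 0.04 ± 0.17. Nedd8 had 56.7 and 58.3 CPM in control livers against 60.5 and 52.5 CPM with the deletion (log2 difference -0.02 ± 0.15). Here the control values lay inside the range of the deletion libraries. Sumo3, at 58.9 and 59.9 against 56.4 and 69.5 CPM, overlapped in the same way (0.08 ± 0.16), and its sign turned to -0.08 without deletion replicate 2.

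Sumo2 and Ufm1 were the other genes with no overlap between groups, in opposite directions. Sumo2 had 26.6 and 26.4 CPM in control livers against 31.5 and 30.9 CPM with the deletion, a log2 difference of 0.24 ± 0.14. Its replicates were within 0.03 of each other on the log2 scale in both groups, where the median gap between replicates was 0.196 (control pair) and 0.175 (deletion pair) over 8319 genes with a mean of at least 10 CPM. Ufm1 had 56.1 and 75.3 CPM in control livers against 49.8 and 48.4 CPM with the deletion, a log2 difference of -0.42 ± 0.18. Its controls lay 0.43 apart on the log2 scale, and the fold change was -0.19 without control replicate 2 and -0.62 without control replicate 1. In all, 3 of the 7 did not overlap with higher deletion values, 1 did not overlap with lower ones, and 3 overlapped. Over all genes tested, 56.0% did not overlap, 28.7% with higher and 27.3% with lower deletion values. Nothing is read from the members' count because the genes were chosen with their values in this contrast already known. The median log2 fold change was 0.08 for the 7 and 0.00 (-0.00359 before rounding) for all genes tested, and 5 of the 7 lay within 1.5-fold, as did 70.5% of all genes.

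Within the controls the order of mean levels was Ubb, Ufm1, Sumo3, Nedd8, Sumo2, Isg15 and Ubd. Ufm1 and Sumo3 overlapped in it, and every other pair of neighbours was separated, although Sumo3 (58.9 to 59.9 CPM) and Nedd8 (56.7 to 58.3 CPM) only narrowly. Ufm1 (56.1 to 75.3 CPM) also spanned both Nedd8 values, although Nedd8 is not its neighbour in the order. In control replicate 1 Ufm1 lay below both Sumo3 and Nedd8. Within the deletion libraries the order was Ubb, Ubd, Sumo3, Nedd8, Ufm1, Sumo2 and Isg15, and only Sumo3 and Nedd8 overlapped as neighbours. The place of Ubd, the seventh of 7 in the controls and the second in the deletion libraries, is the main change in this order. It made up 0.0512% and 0.118% of the summed CPM of the 7 genes in control livers against 15.2% and 18.2% with the deletion.

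**Figure D2:**
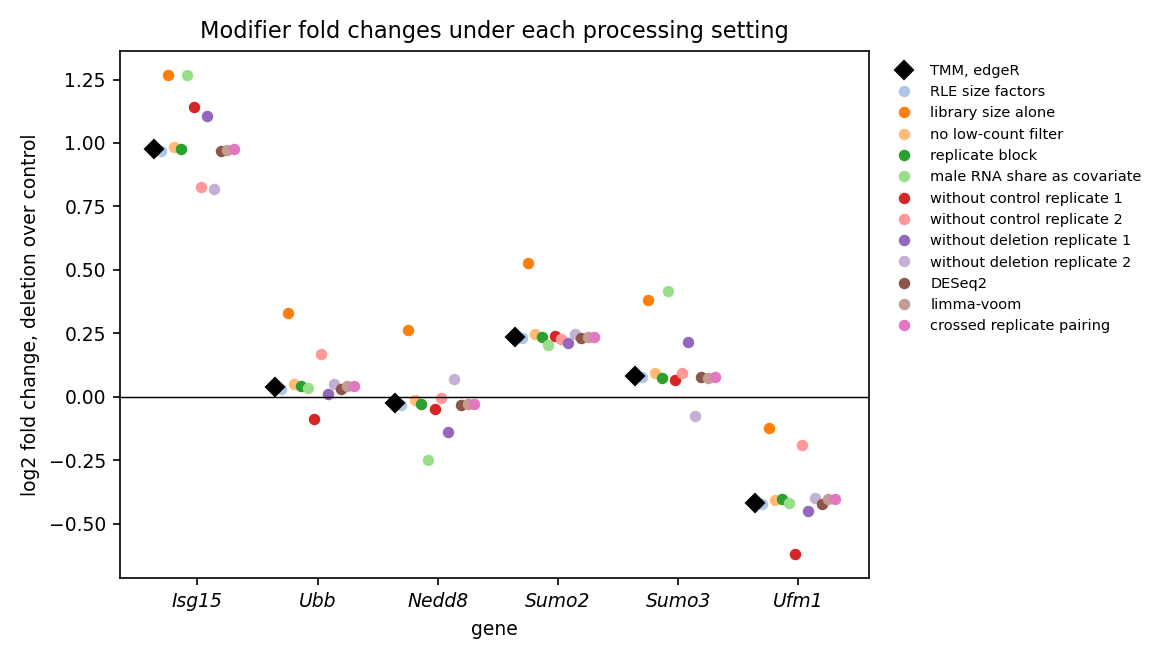
Log2 fold change of deletion over control for 6 modifiers (Ubd, at 7.32 to 8.72, is off this scale); black diamonds are the TMM and edgeR values, and each coloured point is 1 alternative setting. With library size alone as scaling every gene sits higher, and Isg15 stays between 0.82 and 1.27 throughout.

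Ubiquitin itself is supplied by several genes beside Ubb, among them Rps27a, which encodes ubiquitin fused to a ribosomal protein. Rps27a was at 151 and 116 CPM in control livers against 145 and 130 CPM with the deletion (log2 difference 0.05 ± 0.18, adjusted p = 0.913), so its groups overlapped as those of Ubb did. Of 426 windows of 75 bases, the read length, in the last 500 bases of the Ubb transcript, 53.3% also occur in the genes Gm1821 and Gm8797, whose rows held 190 to 285 counts in a library against 6327 to 8435 for Ubb, so reads of these stretches cannot be assigned to 1 gene by sequence and the Ubb values are uncertain. Ubd, Isg15, Nedd8, Sumo3 and Ufm1 shared none of their 426 windows with another annotated gene, and Sumo2 shared 2.82% with a pair of microRNA genes that had 0 counts.

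The other ubiquitin and ubiquitin-like genes, 15 in all with Rps27a among them, included no called gene. The sulfur carrier Urm1 was at 0.09 ± 0.19 (adjusted p = 0.814). Of the 15, 0 were called by edgeR in either direction, 0 were higher and 1 lower at an unadjusted p under 0.05, and DESeq2 called 0. The one at an unadjusted p of 0.0171 was Fau, a ubiquitin-like fusion with a ribosomal protein, named after its values were seen, at -0.48 ± 0.15 (adjusted p = 0.117). The median of the list was -0.07, or 0.23 with library size alone as scaling.

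The enzymes of each pathway were read from the same fit over all genes. Across the 8 lists, 111 of 115 genes were tested, 6 rose (5.41%) and 0 fell. Over all genes tested, 6.57% were called, 4.41% higher and 2.16% lower with the deletion, so the share called higher was close to the background. At an unadjusted p under 0.05, 17 were higher and 3 lower, and DESeq2 called 10 higher and 1 lower. With male RNA share added as a covariate 1 of the 6 calls was made.

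For FAT10, no gene in the list of its conjugation and partners was called by edgeR beside the large difference in Ubd itself. FAT10 is activated by UBA6 and passed to UBE2Z, and NUB1 speeds its delivery to the proteasome. Uba6 had 8.08 and 8.18 CPM in control livers against 8.19 and 11.7 CPM with the deletion (log2 difference 0.29 ± 0.25, adjusted p = 0.54). Ube2z was at 62.9 and 52.8 against 69.5 and 69.0 CPM (0.26 ± 0.16, adjusted p = 0.367). Nub1 was at 26.3 and 23.8 against 29.0 and 30.7 CPM (0.25 ± 0.15, adjusted p = 0.355). These 3 had slightly higher values in both deletion libraries than in both controls, as did 28.7% of all genes tested, and none passed. For Uba6 the groups were barely apart, at 8.18 CPM in the higher control and 8.19 CPM in the lower deletion library. Of the 7 genes of the FAT10 list, 0 were called, 1 was higher and 0 lower at an unadjusted p under 0.05, and DESeq2 called 1 higher and 0 lower. Ubd had no counterpart among them: the highest log2 fold change in the list was 0.64, that of Sqstm1, which encodes the autophagy receptor p62 (named after its values were seen; adjusted p = 0.0779).

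Of 6 genes of ISG15 conjugation and removal, 2 rose, where 4.41% of all genes tested were called higher. Their fold was near that of Isg15. This list was written with earlier results of these data known, so its count is not independent evidence. Uba7, the E1 of ISG15, rose from 18.0 and 18.6 CPM in control livers to 35.8 and 43.6 CPM with the deletion, a log2 difference of 1.12 ± 0.17 (edgeR adjusted p = 0.019). Trim25, a ligase that is itself modified by ISG15, rose from 95.7 and 73.1 to 163 and 183 CPM (1.03 ± 0.19, adjusted p = 0.0314). Uba7 was not called without deletion replicate 2 (adjusted p = 0.0968) or with a replicate block (0.0524), and Trim25 was not called without deletion replicate 1 (0.0711), without deletion replicate 2 (0.143) or with a replicate block (0.0752). Both calls were also absent with the male RNA covariate (0.168 and 0.324), where the log2 fold changes were 1.435 and 1.174.

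The E2 Ube2l6 had 69.6 and 49.7 CPM in control livers against 92.2 and 102 CPM with the deletion (log2 difference 0.70 ± 0.20, adjusted p = 0.0984). Herc6, the main ISG15 ligase of the mouse, had 7.96 and 8.86 against 12.8 and 16.6 CPM (0.81 ± 0.22, adjusted p = 0.0864). Neither passed, although both had higher values in both deletion libraries than in both controls, as did 28.7% of all genes tested. Usp18, the protease that removes ISG15, had 20.8 and 15.4 CPM in the controls, 19.5 CPM in deletion replicate 1 and 36.4 CPM in deletion replicate 2 (0.63 ± 0.32, adjusted p = 0.296), so only deletion replicate 2 lay above the controls. In this list 0 fell and 4 did not pass, with 4 higher and 0 lower at an unadjusted p under 0.05 and 3 and 0 by DESeq2. The median log2 fold change was 0.75, where all genes had 0.00 (-0.00359).

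**Figure D3:**
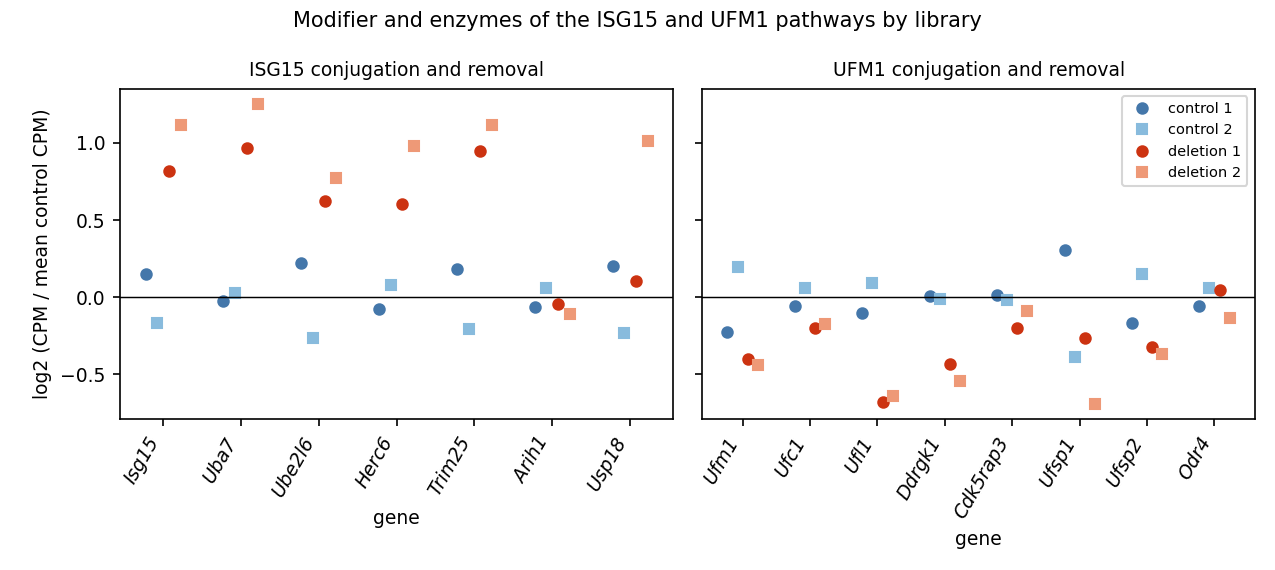
Log2 of CPM over the mean of the 2 controls, for Isg15 and Ufm1 (the first gene of each panel) and genes of their pathways; each point is 1 library, blue for controls and red for deletion libraries. In the ISG15 panel 5 of the 7 genes have both deletion libraries above both controls, as do 28.7% of all genes tested. In the UFM1 panel 6 of the 8 genes shown have both below, as do 27.3% of all genes tested.

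Nedd8 and its machinery showed 1 called gene. NAE1 and UBA3 form the NEDD8 E1, and UBE2M and UBE2F are its E2 enzymes. Nae1, Uba3, Ube2m and Ube2f had log2 fold changes of 0.19 ± 0.16, 0.29 ± 0.16, 0.08 ± 0.15 and -0.03 ± 0.16 (edgeR adjusted p from 0.32 to 0.947). Senp8, the NEDD8 protease, had 42 and 34 counts in control livers against 28 and 30 in the deletion libraries (-0.67 ± 0.35, adjusted p = 0.302). Cand2, whose protein binds cullins that carry no NEDD8, rose from 10 and 7 counts in control livers to 114 and 245 in the deletion libraries. In CPM this was 0.617 and 0.481 against 6.26 and 12.6, a log2 difference of 4.08 ± 0.49 (adjusted p = 0.0102, and at most 0.0455 in the 12 alternatives). Its widely expressed relative Cand1, named after its values were seen, was at 0.01 ± 0.15. Of the 30 genes, which include the cullins and the COP9 signalosome that removes NEDD8, 1 rose, 0 fell and 29 did not pass. At an unadjusted p under 0.05 there was 1 higher and 0 lower, the same numbers as DESeq2 called, and the median was -0.06.

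Of 21 genes of SUMO conjugation and removal, 0 were called by edgeR, 1 was higher and 0 lower at an unadjusted p under 0.05, and DESeq2 called 0. The E1 subunits Sae1 and Uba2 had log2 fold changes of 0.46 ± 0.14 (adjusted p = 0.114) and 0.12 ± 0.15 (0.682). The list ranged from -0.47 to 0.81 with a median of -0.01. Sumo2 held 31.1% and 30.6% of the summed CPM of Sumo2 and Sumo3 in control livers against 35.9% and 30.8% with the deletion. In ubiquitin activation and recycling, 0 of the 5 tested genes were called, 0 also at an unadjusted p under 0.05 and by DESeq2, and Uba1, the main ubiquitin E1, had 212 and 211 against 207 and 219 CPM (0.01 ± 0.15, adjusted p = 0.972).

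All 8 genes of UFM1 conjugation and removal had a log2 fold change below 0 with TMM scaling, like Ufm1, and none was called; with library size alone Ufc1 was at 0.10. After activation UFM1 is passed to UFC1 and attached by UFL1, a ligase that works with DDRGK1. Ufl1 had 43.0 and 49.2 CPM in control livers against 28.8 and 29.5 CPM with the deletion, a log2 difference of -0.66 ± 0.15 that did not pass (edgeR adjusted p = 0.057), although it passed without control replicate 1 (0.0283), without the filter on low counts (0.0141) and with DESeq2 (0.0273). Ufc1 and the protease gene Ufsp2 were at -0.19 ± 0.14 and -0.35 ± 0.17 (adjusted p = 0.475 and 0.27). At an unadjusted p under 0.05, 0 were higher and 2 lower, and DESeq2 called 0 higher and 1 lower. In 6 of the 8 both deletion libraries lay below both controls, against 27.3% of all genes tested. The median was -0.33, or -0.04 with library size alone as scaling, a setting that moved the median of all genes to 0.288, so the list lay below the median of all genes in both.

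**Figure D4:**
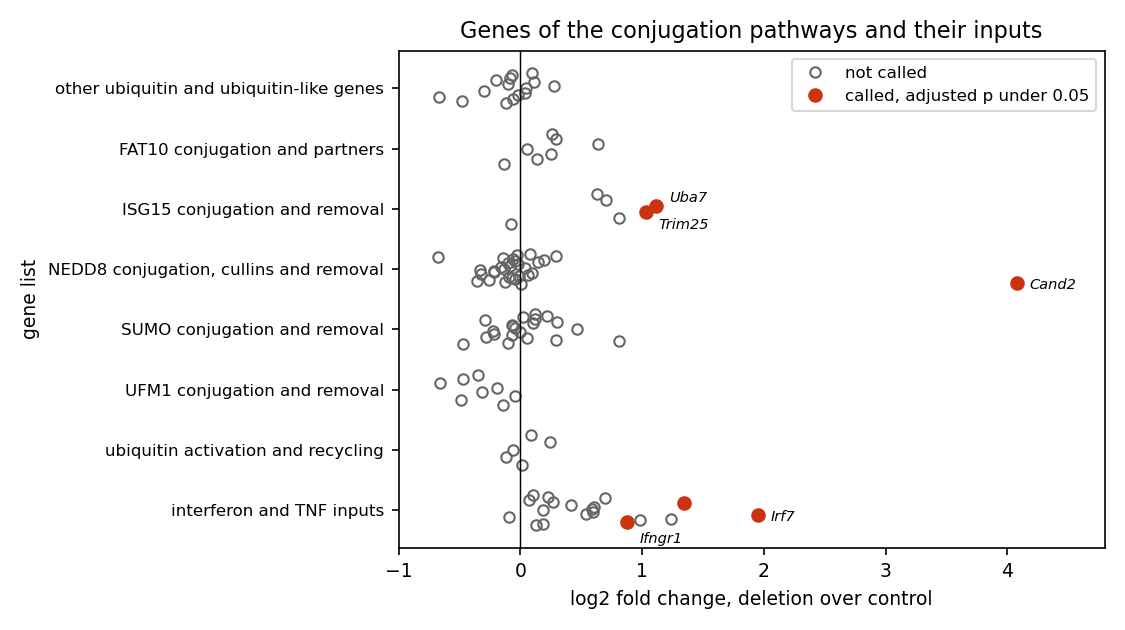
Log2 fold change of deletion over control for every tested gene of the 8 pathway lists (rows); filled red points were called at an adjusted p under 0.05, with names where the text gives their values, and open points were not called. The 6 called genes, with Uba7, Trim25, Cand2, Ifngr1 and Irf7 among them, all lie to the right of 0, and with this TMM scaling the 8 UFM1 genes all lie to the left (with library size alone Ufc1 was at 0.10).

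Signals known to induce Ubd and Isg15 were read as a list that runs from ligands to transcription factors. The text gives single values only for ligands, Ifngr1 and Irf7. Other genes, among them those of TNF receptors and NF-kB, enter only the counts and median of the list. Of the ligands, only Ifng, Ifnb1 and Tnf were read, and each was below the filter on low counts. Ifng had 0, 1, 2 and 0 counts in controls 1 and 2 and deletion replicates 1 and 2. Ifnb1 had 0 in all 4, which allows up to 3 counts or 0.206 CPM in a library. Tnf had 6 and 3 counts in control livers against 22 and 6 in the deletion libraries. The receptor gene Ifngr1 rose from 26.8 and 29.0 to 54.6 and 47.6 CPM (log2 difference 0.87 ± 0.15, edgeR adjusted p = 0.0293). It was not called without deletion replicate 1 (0.124), without deletion replicate 2 (0.0931), with a replicate block (0.083) or with the male RNA covariate (0.553).

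Downstream, Irf7, itself an interferon-induced factor, rose from 22.2 and 32.2 to 103 and 107 CPM (log2 difference 1.95 ± 0.21, edgeR adjusted p = 0.00814). It remained called in 11 of 12 alternatives, the exception being the male RNA covariate (adjusted p = 0.145). Of the 19 tested genes of this list 3 rose, 0 fell and 16 did not pass; 10 were higher and 0 lower at an unadjusted p under 0.05, and DESeq2 called 5 higher and 0 lower. The median was 0.54. The list was written with interferon genes of these libraries already known to be higher, so its count is not independent evidence.

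The promoters of Ubd and Isg15 are shown because NF-kB and interferon-regulated factors are known to act on such sequences. The 250 bases before the start of each gene (RefSeq, GRCm38.p6), read 5′ to 3′ on the gene's strand, lie at chr17:37193642-37193891 (plus strand) for Ubd and chr4:156200819-156201068 (minus strand) for Isg15. Capitals mark matches to the NF-kB consensus and to the core of the interferon-stimulated response element, which is GAAA, any 2 bases and GAAA again.
Ubd: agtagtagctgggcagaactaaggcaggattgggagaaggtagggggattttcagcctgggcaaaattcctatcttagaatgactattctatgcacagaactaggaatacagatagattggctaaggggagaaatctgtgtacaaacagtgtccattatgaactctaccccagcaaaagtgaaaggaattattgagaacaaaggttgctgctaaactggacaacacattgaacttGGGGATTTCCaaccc
Isg15: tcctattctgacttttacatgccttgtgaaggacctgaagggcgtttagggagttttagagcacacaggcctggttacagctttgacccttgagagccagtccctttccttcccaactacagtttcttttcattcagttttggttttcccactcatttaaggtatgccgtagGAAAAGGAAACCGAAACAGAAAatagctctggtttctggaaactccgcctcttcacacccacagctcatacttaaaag

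The Ubd window held 1 match to the NF-kB consensus, GGGGATTTCC, which begins 15 bases before the start, and 0 to the interferon element. Isg15 held 3 overlapping matches to the interferon element, GAAAAGGAAA, GAAACCGAAA and GAAACAGAAA, which begin 78, 72 and 66 bases before the start, and 0 to the NF-kB consensus. Searched on both strands, an NF-kB match was present in 4.51% and an interferon element in 3.44% of 32841 RefSeq windows that run from 250 bases before to 50 after a start. The windows of the other 5 members (Ubb has 2 and Sumo3 has 3) held 0 matches to either. The gamma-activated site core TTCNNNGAA was in 8.30% of windows and among the members only in 1 of the Ubb windows (TTCCGGGAA), and TATAAA was in 13.6% of windows and in 0 of the members'. A match is a description of the letters and shows no binding.

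Most genes around Ubd were below the filter, and no tested neighbour of Ubd or Isg15 was called with all libraries and the filter. Ubd (ENSMUSG00000035186) lies on chromosome 17 from 37193892 to 37196095 (plus strand, GRCm38), among olfactory receptor genes at the edge of the major histocompatibility complex. Of 20 other genes within 100 kb, 19 were below the filter. The 1 tested was H2-M3, a non-classical class I gene, with 44 and 40 counts in control livers against 76 and 79 in the deletion libraries (log2 difference 0.59 ± 0.29, adjusted p = 0.274). Olfr94, 330 bases beyond the 3' end of Ubd and named after its values were seen, had 0 and 0 counts in control livers against 2 and 7 in the deletion libraries.

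Isg15 (ENSMUSG00000035692) lies on chromosome 4 from 156199424 to 156200818 (minus strand). Of 10 other genes within 100 kb, 5 were tested and 0 called by edgeR or DESeq2. At an unadjusted p under 0.05 there were 0 as well, among these 5 or for H2-M3. Agrn, whose protein agrin is a matrix proteoglycan, was at 0.59 ± 0.29 (adjusted p = 0.27), but was called without control replicate 1 (0.0352) and without the filter on low counts (0.0271). The others were Noc2l at -0.05 ± 0.14 (0.872), AW011738 at 0.00 ± 0.26 (adjusted p = 1; log2 fold change -0.00097), 9430015G10Rik at -0.05 ± 0.22 (0.918) and Plekhn1 at -0.45 ± 0.43 (0.579).

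The genes whose profile over the 4 libraries came closest to that of Ubd were Ccn5, Sprr1a, Cdh17, Cib3 and Abcc12. Likeness was the distance between log2 CPM values centred on each gene's mean, among 13328 genes with a mean of at least 1 CPM. The distances were 1.76 to 2.46 for these 5, and only Ccn5 and Sprr1a were among the nearest 5 with a smaller prior count (0.5 in place of 2). The values were centred but not scaled, so a gene with a smaller step between groups lies far from Ubd even where the pattern is alike. The distances for Ubd therefore cannot be set beside those for Isg15. Of the 5, Cib3 (1.85 and 1.37 against 93.1 and 118 CPM) came closest to the level of Ubd in the deletion libraries. For Isg15 the nearest were Map4, Ano10, Nt5c3b, P2rx4 and Pea15a, at distances of 0.0238 to 0.0972, all 5 also with the smaller prior count. Map4, a microtubule-associated protein gene, had 51.8 and 41.6 CPM in control livers against 80.7 and 99.6 CPM with the deletion. A profile over 4 libraries in 2 groups holds little more than the step between groups and the gaps between replicates.

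In bulk tissue a larger share of cells of a type and more RNA per cell cannot be told apart. Ubd is known to be high in mature dendritic cells and B cells. Summed markers of these cells were low in every library, and the part of these cells in the Ubd values was not tested. The summed level of 8 dendritic cell markers was 15.7 to 19.0 CPM in control livers against 16.9 to 17.4 CPM with the deletion, with 0 of 5 tested called. That sum mixes opposite directions. Flt3 was higher in both deletion libraries (1.04 and 1.03 CPM) than in both controls (0.308 and 0.824 CPM). Zbtb46 was lower in both (3.30 and 3.91 against 5.98 and 5.36 CPM). Of 6 B cell markers, whose summed level was 5.80 to 8.11 against 6.12 to 7.64 CPM, 4 were tested and 0 called. T and NK cell markers, which can supply interferon gamma, summed to 4.38 to 5.84 CPM and 5.30 to 8.46 CPM, with 0 of 5 tested called. For each of these 3 lists, no marker was higher or lower at an unadjusted p under 0.05 (0 and 0), DESeq2 called 0, and none was at 0 counts in every library.

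The summed level of macrophage markers was higher in both deletion libraries than in both controls. The 8 together gave 384 to 507 CPM in control livers against 625 to 794 CPM with the deletion; 1 (Cd5l, adjusted p = 0.0499) rose, 0 fell, and 6 were higher at an unadjusted p under 0.05. In 7 of the 8 both deletion values were above both controls, as in 28.7% of all genes tested. The number called was 0 without control replicate 1, without either deletion replicate, and with RLE scaling, limma-voom, a replicate block or the male RNA covariate; it was 4 with library size alone, 5 without control replicate 2 and 6 without the filter on low counts. The neutrophil list summed to 2.22 to 4.81 and 7.10 to 9.12 CPM, with 0 of 3 tested called by edgeR or DESeq2, 2 higher and 0 lower at an unadjusted p under 0.05, and the defining marker Ly6g at 0 in every library. All 3 tested had higher values in both deletion libraries than in both controls, as did 28.7% of all genes tested. Their median log2 fold change was 1.85. Without the filter on low counts 2 of 5 were called higher, with a median of 0.84. Cholangiocyte markers gave 62.9 to 107 and 1346 to 1937 CPM, nearly all of it Spp1. Spp1 and Sox9 rose, whereas the other 4 tested, with the defining marker Krt19 among them, had log2 fold changes from -2.62 to -0.77 that did not pass (adjusted p from 0.182 to 0.603). All 4 were highest in control replicate 1: Krt19 had 39.2 CPM there, 3.23 CPM in control replicate 2, and 2.91 and 3.96 CPM with the deletion. Without control replicate 1 the median log2 fold change of the list turned from -0.81 to 0.44, and with the male RNA covariate it was 0.09. Endothelial markers summed to 200 to 229.5 and 176 to 185 CPM and stellate cell markers to 259 to 299.9 and 251 to 266 CPM, with 0 of 6 called in each (0 higher and 1 lower at an unadjusted p under 0.05 in each; DESeq2 called 1 endothelial marker lower and 0 stellate markers). The part of these cell types in the values of Ubd, Isg15 and the ISG15 enzymes was not tested.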

How the data were processed

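RNA was measured in 4 mouse liver libraries, 2 per group, made with the QuantSeq 3' kit and read as single-end 75 bp reads, per the labels' protocols; the tissue label is liver, but the library protocol mentions hepatocyte RNA. Per the submitters' processing notes, Bowtie2, edgeR, mm10 and GRCm38 were used; not given in the sources used here are the counting program, its strand setting and annotation. The table the authors deposited holds raw counts per Ensembl gene, with 0 other columns. Symbols came from GENCODE M21 (GRCm38), which matched 52029 of 56953 rows.

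Groups were compared with edgeR 4.0.16 (R 4.3.3): TMM scaling, filterByExpr (minimum count 10, total 15), the two-sided quasi-likelihood F test with genotype as the only term, and Benjamini-Hochberg adjustment over all 14600 genes. A gene was called at an adjusted p under 0.05. SE was taken as the size of the log2 fold change divided by √F. The code was tested on simulated data. With 2 against 2, the smallest exact permutation p is 0.333, so single values were not tested that way. Replicates differed by more than counting noise (chi-square per degree of freedom 38.9 and 25.3). Alternatives were DESeq2 1.42.0, limma-voom 3.58.1, other scalings, no filter, a replicate block, a male RNA covariate and leaving out each library. The replicate block and the male RNA covariate each add a term, so they leave fewer residual degrees of freedom and less power.

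The members and lists were chosen with earlier results of these data known. Genes named are the members, Ube2n, fixed enzymes of each pathway, further ubiquitin and ubiquitin-like genes, up to 4 called genes per list and direction, the 5 nearest profiles and tested neighbours of Ubd and Isg15, and up to 3 defining genes per marker list. Some genes that this rule names are not reported here; counts over lists include them.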

Additional observations from a re-analysis of the deposited data

How the results depend on the processing

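Ubd (7.32 to 8.72), Isg15 (0.82 to 1.27), Sumo2 (0.20 to 0.53) and Ufm1 (-0.62 to -0.13) kept the sign of their log2 fold change in all 12 alternatives. Leaving out 1 library at a time gave 7.32 to 8.72 for Ubd, 0.82 to 1.14 for Isg15, -0.0861 to 0.17 for Ubb, -0.14 to 0.0711 for Nedd8, 0.21 to 0.25 for Sumo2, -0.0771 to 0.22 for Sumo3 and -0.62 to -0.19 for Ufm1, so Ubb, Nedd8 and Sumo3 changed sign. With library size alone as scaling, Isg15 was at 1.27, Ubb at 0.33, Nedd8 at 0.26, Sumo2 at 0.53, Sumo3 at 0.38 and Ufm1 at -0.13, because the median of all genes moved from -0.00359 to 0.288. With the male RNA share as a covariate, 0.969 and 1.03 for control livers against 0 and 0.613 with the deletion, Ubd was at 8.27, Isg15 at 1.27, Nedd8 at -0.25, Sumo2 at 0.20 and Sumo3 at 0.42.

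Of all genes, 959 were called (67.2% higher), against 1764 with library size alone (88.5% higher), 2768 without a filter on low counts, 1647 with DESeq2, 65 with the male RNA covariate (95.4% higher) and 343 to 2081 with 1 library left out. With 1 library left out, the lone library of a group is assumed to vary like the other pair. By library this was 1700 without control replicate 1, 2081 without control replicate 2 (56.9% higher), 499 without deletion replicate 1 and 343 without deletion replicate 2. Pathway genes called higher were 6, against 15 with library size alone, 16 without a filter, 10 with DESeq2, 1 with the covariate and 4 to 10 with 1 library left out (10 without either control). Those called lower were 0, against 2 without a filter, 1 with DESeq2 and 0 to 2 with 1 library left out.

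With the replicate number as a block, Ubd was at 7.91 and Isg15 at 0.97, 390 genes were called over all, and 3 of the pathway genes were called higher. The labels share only the number: deviations of same-numbered libraries had a correlation of -0.12 across genes, and a crossed pairing, added after seeing the data, gave 1366 and 9. Among the neighbours of Ubd and Isg15 0 were called, against 1 without a filter and 0 to 1 with 1 library left out (Agrn in each case, without control replicate 1). Of the nearest 5 genes to Ubd, 2 were shared with the smaller prior count. For 31 named genes, 345 of 372 alternative values stayed on the same side of the threshold with the same direction where called, 14 lost a call, 13 gained one and 0 reversed. The cause of these changes was not tested except for scaling. At 5 and 12 control counts, depth limits the fold of Ubd.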
